A study of Mus musculus with 6 samples.

Results

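The NRF2 antioxidant response genes described here are a set of 10 genes, picked by symbol from the 24062 genes of the count table. They comprise the transcription factor gene Nfe2l2 (NRF2), its inhibitor gene Keap1, and 8 genes of quinone reduction and of the glutathione and thioredoxin systems that are known NRF2 targets or close partners: Nqo1, Gclc, Gclm, Gsr, Txnrd1, Srxn1, Prdx1 and Gpx4. All 10 were in the table and all 10 passed the low-count filter, which left 12126 genes. RNA sequencing was done on lineage-negative mouse blood-forming cells carrying retroviral MLL-AF9, a gene fusion that drives acute myeloid leukemia. The 3 WT-labelled libraries came from cells of A20 +/+ mice and the 3 KO-labelled libraries from cells of A20 f/f mice, in which the A20 gene is floxed. Cells of both groups carried Rosa Cre-ER, a Cre recombinase that tamoxifen switches on, were kept in medium with 10% serum and IL-6, IL-3 and SCF at 10 ng/mL each, and were exposed to 4-hydroxytamoxifen at 1 µM for 48 h. The sources used here give neither the ages of the mice nor whether replicates came from separate animals or cultures. The p-values therefore rest on the spread between libraries, part of which may be technical.

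NRF2 is a basic leucine zipper factor that, paired with a small MAF protein, binds antioxidant response elements in front of genes for detoxifying and redox enzymes. KEAP1 is the adaptor of a CUL3 ubiquitin ligase that keeps NRF2 short-lived; electrophiles and oxidants modify KEAP1 cysteines and let NRF2 accumulate, so that much of its control lies in protein stability and is not seen in mRNA. In myeloid cells the pathway is known for buffering the oxidants made by phagocytes and for supplying glutathione and reduced thioredoxin.

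The libraries held 16113320 to 25415274 counted reads, and levels below are CPM, counts scaled to a common library total, with TMM factors, which set that total from genes that differ little between libraries. Tnfaip3, which encodes A20, lay at 7.39 to 8.67 CPM in the WT-labelled and 74.1 to 100.1 CPM in the KO-labelled libraries (log2 fold change 3.38, SE 0.17; adjusted p = 4.7e-05 by edgeR). Counts over a whole gene do not isolate its floxed part and so do not measure the deletion. Since A20 mRNA ran against the labels, groups are called by label and every direction is KO-labelled relative to WT-labelled. Donor sex also differed with the label, with Xist at 564 to 2109 CPM in the WT-labelled and 0 to 4.77 CPM in the KO-labelled libraries and the Y-linked Ddx3y at 0 to 0.80 and 78.5 to 89.2 CPM, so genotype and sex cannot be told apart. In each group replicate 1 differed most from the other libraries: chi-square per degree of freedom was 205 and 231 between it and the other WT-labelled libraries against 25.2 between those 2, and 94.5 and 79.7 against 2.37 in the KO-labelled group. Gapdh, a glycolysis gene, was at 2645 and 2716 CPM in the WT-labelled and KO-labelled replicate 1 and at 167 to 254 CPM in the other 4 libraries. The 8 progenitor markers summed to 2261 to 3162 against 2706.5 to 3137.5 CPM, with 1 higher (Hoxa9), 3 lower (Cd34, Kit and Myb) and 4 not passing. Of these, Ptprc, the pan-leukocyte gene, was present at 214 to 598 CPM in all libraries, and Cd34 lay at 597 to 632 CPM under the WT label and 1.17 to 1.99 CPM under the KO label. Summed levels of 8 monocyte and macrophage markers were 900 to 2041 CPM in the WT-labelled and 2225 to 3622 CPM in the KO-labelled libraries. Of 7 tested markers 2 were higher (Cd14 and Csf1r) and 2 lower (Fcgr1 and Mrc1). Ly6c2, which made up most of these sums, overlapped between groups and did not pass (adjusted p = 0.22 by edgeR). Summed neutrophil markers (7 of 8 listed were in the table) were 46.1 to 471 against 11.1 to 27.5 CPM. Of the 4 tested, Mmp8, which made up most of the WT-labelled sums at 37.98, 467 and 388.5 CPM, was lower and Ngp was higher. Summed levels were, for the 8 mast cell and basophil markers, 82.02 to 156 against 16.6 to 18.3 CPM with Cma1, Fcer1a and Tpsb2 at 0, and for the 6 megakaryocyte markers 27.6 to 41.3 against 0.90 to 1.13 CPM. Gata2 made up most of the WT-labelled mast cell and basophil sums, at 57.99 to 119.7 against 4.71 to 5.07 CPM. Of the 4 tested markers of that list Gata2 and Mcpt8 were lower, and Hdc and Ms4a2 did not pass. Erythroid markers summed to 0.94 to 1.89 against 1.01 to 1.56 CPM with the listed globin genes and Alas2 at 0, T and NK cell markers to 0 to 0.11 against 0.69 to 4.78 CPM with Cd3e, Cd8a and Ncr1 at 0, and stromal and endothelial markers to 0.83 to 2.09 against 3.65 to 5.73 CPM. In the KO-labelled libraries Cd4, at 0.65 to 4.64 CPM, made up most of the T and NK cell sums. Pdgfrb, at 2.70 to 4.03 CPM, made up most of the stromal and endothelial ones there. The part of these marker differences in the results below was not tested, and in such bulk samples a change in the share of a cell type and a change in RNA per cell cannot be told apart.

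Of the 10 genes, 3 were higher and 1 was lower in the KO-labelled libraries, and 6 did not pass edgeR's quasi-likelihood test at a Benjamini-Hochberg adjusted p under 0.05 over all genes tested. Nfe2l2, Gsr and Srxn1 rose by 1.00 to 1.16 and Nqo1 fell by 4.15 on the log2 scale. The background was 27.3% of tested genes called, with 13.7% higher and 13.7% lower, against 4 of 10 here. The groups did not overlap for 5 members (the 4 called ones and Gclc), where 47.6% of all tested genes had no overlap. The median log2 fold change of the set was 0.29 beside −0.04 over all tested genes. Reads of the 10 genes together made up 0.155% to 0.176% of all counted reads in the WT-labelled and 0.207% to 0.251% in the KO-labelled libraries. These shares follow the most abundant members and do not show a rise of each. In KO-labelled replicate 1, Gpx4, which did not pass, gave 23291 of the 60560 reads of the set.

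**Figure D1:**
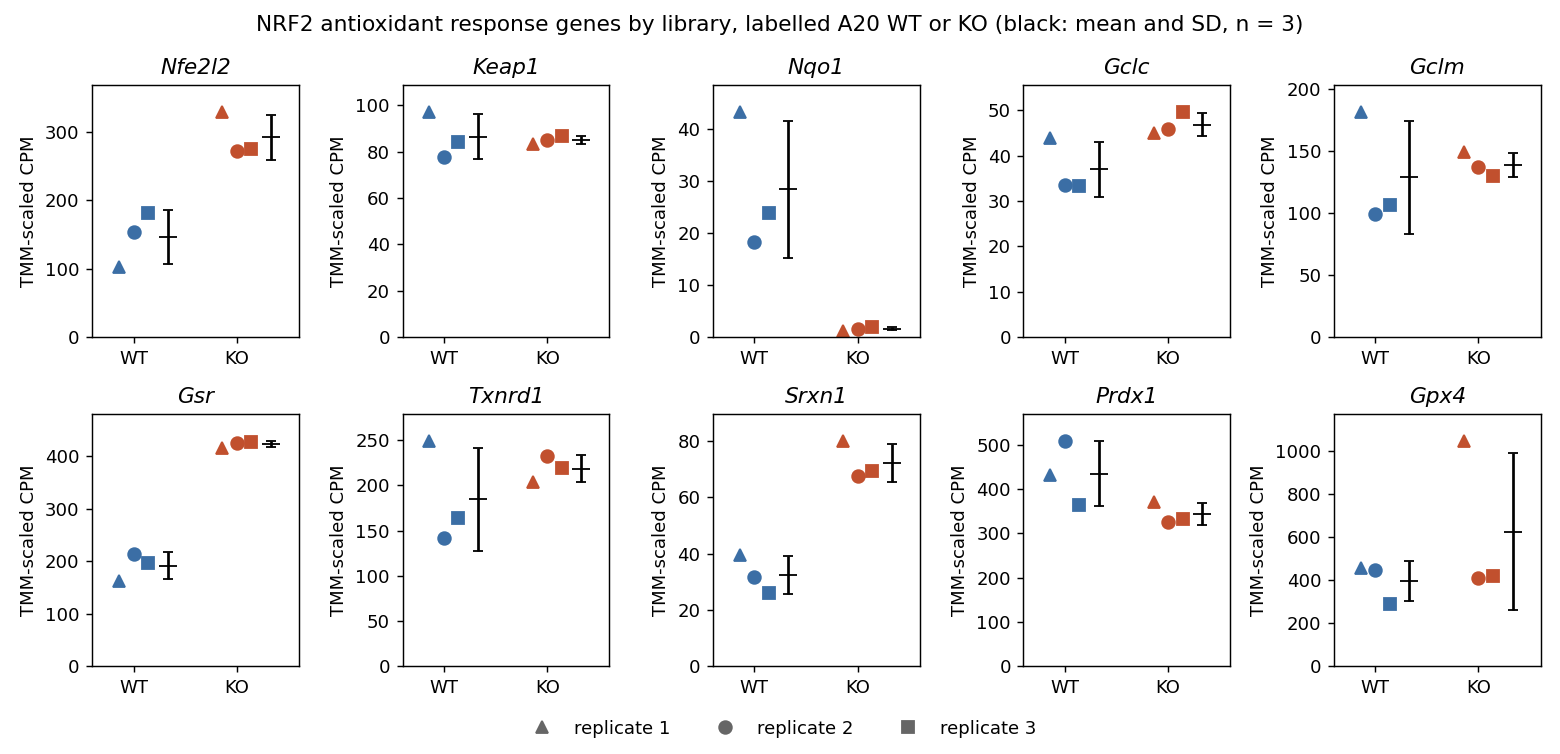
TMM-scaled CPM (vertical axes, each starting at 0) of the 10 genes in each library labelled WT (blue) or KO (red-brown), with the marker shape giving the replicate number and the black bar the mean and SD of 3 libraries. The KO-labelled libraries lie apart from the WT-labelled ones for Nfe2l2, Nqo1, Gclc, Gsr and Srxn1, and WT-labelled replicate 1 is the highest WT-labelled library for Keap1, Nqo1, Gclc, Gclm, Txnrd1, Srxn1 and Gpx4.

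Promoter sequences are shown for 4 members because they set the gene that fell beside others of the set: Nqo1, the 2 risers with a sequence, Srxn1 and Nfe2l2, and Txnrd1, a target that did not pass. RefSeq promoter windows (GRCm38.p6, 250 bases before to 50 after an annotated start) matched 8 of the 10 symbols with 13 windows; Gclc and Gsr did not match. The printed part is the 250 bases before the start, 5′ to 3′ on the gene's strand. Capitals mark TGACNNNGC or TGAGNNNGC, the core letters of antioxidant response elements, and TGACTCA or TGAGTCA, the letters of AP-1 sites, which can overlap the former; all were searched on both strands. Nqo1 lay at chr8:107403206-107403455 on the minus strand, Srxn1 at chr2:152105274-152105523 on the plus strand, Nfe2l2 at chr2:75704664-75704913 on the minus strand and the middle of 3 Txnrd1 windows at chr10:82858956-82859205 on the plus strand.
Nqo1: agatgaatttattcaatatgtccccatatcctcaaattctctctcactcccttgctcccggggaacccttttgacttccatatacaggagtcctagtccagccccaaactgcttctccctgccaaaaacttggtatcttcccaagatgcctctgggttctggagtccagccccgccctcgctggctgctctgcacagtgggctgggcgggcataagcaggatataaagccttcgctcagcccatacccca
Srxn1: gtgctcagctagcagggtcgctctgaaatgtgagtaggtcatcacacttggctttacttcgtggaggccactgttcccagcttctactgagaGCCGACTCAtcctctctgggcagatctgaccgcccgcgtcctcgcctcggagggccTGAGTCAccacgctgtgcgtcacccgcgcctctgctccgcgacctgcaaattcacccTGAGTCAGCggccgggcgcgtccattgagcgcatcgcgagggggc
Nfe2l2: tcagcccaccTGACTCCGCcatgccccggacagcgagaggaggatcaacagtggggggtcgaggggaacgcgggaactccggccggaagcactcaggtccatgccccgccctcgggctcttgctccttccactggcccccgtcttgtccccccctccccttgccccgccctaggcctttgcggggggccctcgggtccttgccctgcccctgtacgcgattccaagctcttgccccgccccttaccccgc
Txnrd1: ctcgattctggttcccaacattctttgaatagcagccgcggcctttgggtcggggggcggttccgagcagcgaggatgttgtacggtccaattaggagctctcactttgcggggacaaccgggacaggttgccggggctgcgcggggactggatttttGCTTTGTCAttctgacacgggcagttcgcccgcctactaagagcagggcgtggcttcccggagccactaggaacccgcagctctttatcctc
The Srxn1 sequence held TGAGTCGGC on the opposite strand at 158 bases before the start, TGAGTCA at 102 bases and TGAGTCAGC, which contains TGAGTCA, at 45 bases. Nfe2l2 held TGACTCCGC 240 bases before its start and Txnrd1 held TGACAAAGC on the opposite strand at 92 bases, printed there as its reverse complement. Past the printed part, Srxn1 held TGACCTAGC 29 bases after its start, on the opposite strand. In the windows not printed, Gclm held TGACGGTGC at 134 bases and Prdx1 held TGACTCAGC at 133 bases, both on the opposite strand. Prdx1 also held TGACTCA at 237 bases, TGAGTCA at 131 bases, overlapping the match before, and TGAGAACGC 16 bases after its start, on the opposite strand. TGACNNNGC or TGAGNNNGC was found for 5 of the 8 members with a window, and in 27.8% of all 32851 RefSeq windows of this length (30.8% of 27025 genes, of which some have several windows). For TGACNNNGC alone the numbers were 5 of 8 members beside 14% of genes (12.4% of windows), and for TGAGNNNGC 2 of 8 beside 19.8% (17.6%). For TGACTCA or TGAGTCA they were 2 of 8 beside 5.95% of genes (5.2% of windows). Among the 3 Txnrd1 windows only the printed one held a match. The Nqo1, Keap1 and Gpx4 windows held none of these letters, which describes these windows only.

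Nfe2l2, the transcription factor of the pathway, rose in the KO-labelled libraries. In mm10 it spans 75675513 to 75704641 of chromosome 2, minus strand. Its level was 103, 154 and 181 CPM with the WT label against 329, 271 and 275 CPM with the KO label. No KO-labelled library reached down to the WT-labelled ones, and replicate 1 was the lowest WT-labelled and the highest KO-labelled library. This was a log2 fold change of 1.00 with an SE of 0.22 (edgeR, adjusted p = 0.016). It was 1.68 in the replicate 1 pair, with 1 library each and no test. In replicates 2 and 3 alone, where 52.9% of all tested genes were called, it was 0.69 (adjusted p = 0.0013 by edgeR). Nfe2l2 no longer passed when WT-labelled replicate 2 (adjusted p = 0.057) or KO-labelled replicate 1 (0.061) was left out, or when replicates 2 and 3 of each group were summed into 1 library (0.083).

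Keap1, the inhibitor, on chromosome 9 at 21229730 to 21239361 of the minus strand, did not pass. The WT-labelled libraries had 97.2, 77.9 and 84.4 CPM and the KO-labelled libraries 83.4, 85.02 and 86.96 CPM, so the groups overlapped. The log2 fold change was −0.02 with a 95% interval of −0.31 to 0.27 (adjusted p = 0.92 by edgeR). Exons of Keap1 overlap those of Gm16754 on the opposite strand over 510 bases, and reads of the 2 genes in that stretch can be separated only by stranded counting, and the sources used here do not state this. The ratio of Nfe2l2 to Keap1 per length was 1.31, 2.45 and 2.66 in the WT-labelled and 4.88, 3.95 and 3.91 in the KO-labelled libraries. The 2 sets of ratios did not overlap (exact two-sided permutation p = 0.1, the smallest that 3 against 3 libraries allow; 0.2 adjusted over the 2 ratios tested).

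Nqo1, the quinone reductase often used as a readout of NRF2 activity, fell furthest of the set and was the member that went against the others called. It lies on chromosome 8 at 107388225 to 107403206, on the minus strand. The WT-labelled libraries had 43.3, 18.3 and 23.8 CPM, from 1038, 318 and 479 reads, and the KO-labelled libraries 1.26, 1.65 and 1.91 CPM, from 28, 38 and 32 reads. All KO-labelled libraries were far below the lowest WT-labelled one, and WT-labelled replicate 1 was the highest. The log2 fold change was −4.15 (SE 0.39; 95% interval −5.07 to −3.23; adjusted p = 5.0e-04 by edgeR). It was −4.64 in the replicate 1 pair and −3.59 in replicates 2 and 3 alone (adjusted p = 4.7e-05), and Nqo1 passed under all 17 alternatives run.

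Gclc and Gclm encode the catalytic and the modifier subunit of glutamate-cysteine ligase, the first and rate-limiting enzyme of glutathione synthesis. They lie on chromosome 9 at 77754535 to 77794485 and on chromosome 3 at 122245557 to 122270732, both on the plus strand. Gclc had 43.9, 33.6 and 33.4 CPM under the WT label and 45.02, 45.9 and 49.7 CPM under the KO label. The groups did not overlap, but the lowest KO-labelled library lay only just above WT-labelled replicate 1, and the gene did not pass (log2 fold change 0.34, 95% interval −0.01 to 0.69; adjusted p = 0.13 by edgeR). Gclm had 181, 98.7 and 106 CPM with the WT label against 149, 137 and 130 CPM with the KO label. WT-labelled replicate 1 was thus above and the other 2 WT-labelled libraries below all KO-labelled ones (log2 fold change 0.10, 95% interval −0.46 to 0.67; adjusted p = 0.79). Gclm exons overlap those of Gm17494 and Gm6061 over 540 bases. The direction of Gclm turned without WT-labelled replicate 2 (−0.06) or 3 (−0.02). Within replicates 2 and 3 alone both subunit genes were higher, Gclc by 0.50 (adjusted p = 0.0040) and Gclm by 0.36 (adjusted p = 0.0078 by edgeR) on the log2 scale. In that smaller fit 52.9% of all tested genes were called. Its p-values rest in part on KO-labelled replicates 2 and 3, which differed little (chi-square per degree of freedom 2.37). The ratio of Gclc to Gclm per length was 0.40, 0.57 and 0.53 in the WT-labelled and 0.51, 0.56 and 0.64 in the KO-labelled libraries and overlapped between groups (exact two-sided permutation p = 0.5, also after adjustment over the 2 ratios).

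Gsr, the glutathione reductase that regenerates glutathione from its oxidized form with NADPH, rose with little spread. It lies on chromosome 8 at 33652523 to 33698163, on the plus strand. Its level was 163, 214 and 197 CPM under the WT label and 417, 426 and 428 CPM under the KO label. All KO-labelled libraries lay well above the highest WT-labelled one. The log2 difference came to 1.15 with an SE of 0.15 (edgeR, adjusted p = 0.0017), with 1.36 in the replicate 1 pair and 1.04 in replicates 2 and 3 alone. The call held under all 17 alternatives run (highest adjusted p = 0.042).

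Srxn1, sulfiredoxin, which repairs overoxidized peroxiredoxins, rose by a like amount from a lower level. The gene lies on chromosome 2 at 152105516 to 152111376, on the plus strand. Its level was 39.4, 31.7 and 25.9 CPM with the WT label against 80.1, 67.6 and 69.4 CPM with the KO label, again with no overlap. The log2 difference came to 1.16 with an SE of 0.18 (edgeR, adjusted p = 0.0037), with 1.02 in the replicate 1 pair and 1.24 in replicates 2 and 3 alone. It too passed under all 17 alternatives, with a highest adjusted p of 0.048.

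Txnrd1, the cytosolic thioredoxin reductase, and Prdx1, a peroxiredoxin that thioredoxin reduces, did not pass. They lie on chromosome 10 at 82833951 to 82897712 and on chromosome 4 at 116685544 to 116700822, both on the plus strand. Txnrd1 had 249, 141 and 164 CPM under the WT label and 203, 233 and 219 CPM under the KO label. As for Gclm, WT-labelled replicate 1 was above all KO-labelled libraries while the other 2 were below them (log2 fold change 0.24, 95% interval −0.28 to 0.76; adjusted p = 0.46 by edgeR). In replicates 2 and 3 alone, where 52.9% of all tested genes were called, Txnrd1 was higher by 0.55 (adjusted p = 0.0031 by edgeR). The replicate 1 pair differed by −0.29. Prdx1 had 432, 509 and 363 CPM with the WT label against 371, 325 and 333 CPM with the KO label. The groups overlapped at a single pair of libraries, and the log2 fold change was −0.34 (95% interval −0.74 to 0.05; adjusted p = 0.18). Prdx1 shares 15.4% of its 31-base words with transcripts of other genes, most with Gm21399.

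Gpx4, the selenoenzyme that reduces lipid hydroperoxides in membranes with glutathione, did not pass, and a single library set its mean. The gene lies on chromosome 10 at 80047166 to 80056439, on the plus strand. It had 455, 448 and 288 CPM under the WT label and 1049.5, 412 and 419 CPM under the KO label. KO-labelled replicate 1 lay far above the rest, and the other 2 KO-labelled libraries fell among the WT-labelled ones (log2 fold change 0.66, 95% interval −0.29 to 1.61; adjusted p = 0.27 by edgeR). Without KO-labelled replicate 1 the log2 fold change was 0.07 (adjusted p = 0.88), and in replicates 2 and 3 alone it was 0.16 (adjusted p = 0.52). Of its 31-base words 38.9% occur in transcripts of other genes, most in the pseudogene Gpx4-ps2, so the count is uncertain where the counting could split such reads.

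The number of members called depended on WT-labelled replicate 1. In replicates 2 and 3 alone 6 were higher (Nfe2l2, Gclc, Gclm, Gsr, Txnrd1 and Srxn1) and 1 lower (Nqo1), while 52.9% of all tested genes were called in that comparison, 25.8% higher and 27.1% lower. Without WT-labelled replicate 1 6 members were again higher and 1 lower, beside 42.8% of all tested genes, 22.0% higher and 20.8% lower. That library was the highest WT-labelled one for 7 members (Keap1, Nqo1, Gclc, Gclm, Txnrd1, Srxn1 and Gpx4) and the lowest for Nfe2l2 and Gsr.

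**Figure D2:**
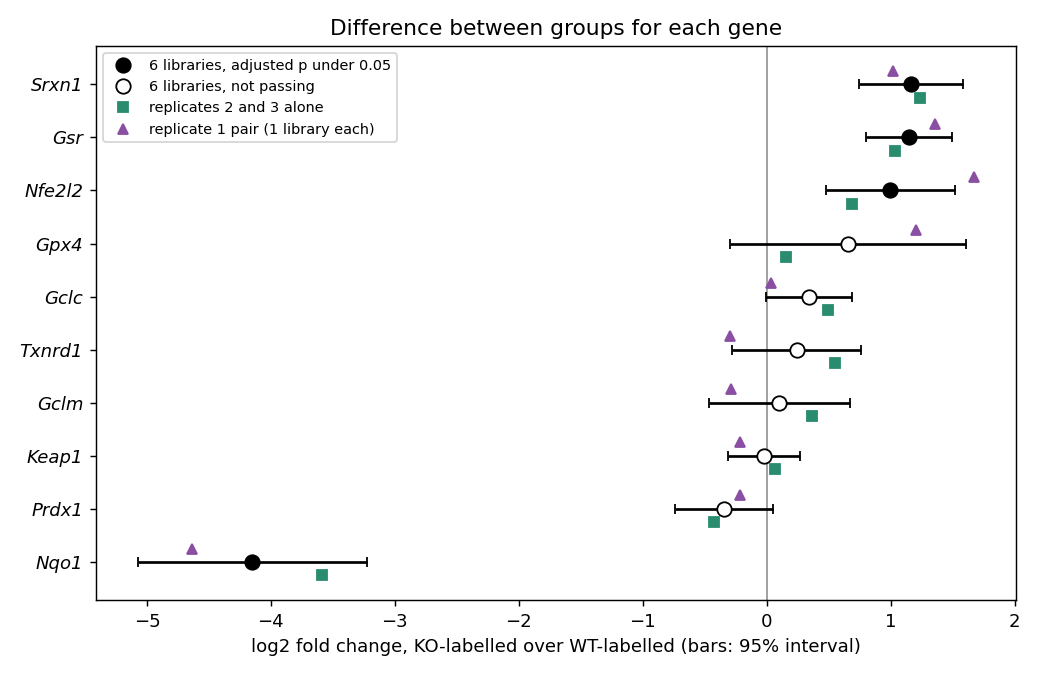
Log2 fold change of KO-labelled over WT-labelled libraries (horizontal axis) for each gene, with circles and 95% intervals from all 6 libraries, squares from replicates 2 and 3 alone and triangles from the replicate 1 pair, which has 1 library per group. Srxn1, Gsr and Nfe2l2 lie near 1, Nqo1 lies at −4.15, and for Keap1, Gclm and Txnrd1 squares and triangles lie on opposite sides of 0.

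Per length of exon, so that genes can be set beside each other, Gpx4 and Prdx1 were the most abundant members in the WT-labelled libraries at 230 ± 54.7 and 143 ± 24.0 CPM per kilobase (mean ± SD, n = 3). Gsr followed at 69.4 ± 9.46 and Nfe2l2 at 38.5 ± 10.5. Below them came Txnrd1 (26.1 ± 8.05), Gclm (20.5 ± 7.27), Keap1 (18.4 ± 2.09), Nqo1 (18.3 ± 8.48), Srxn1 (11.5 ± 2.40) and Gclc (9.82 ± 1.59). From Nfe2l2 down to Gclc, the SD ranges of neighbours in this order overlapped. In the KO-labelled libraries Gsr, at 154 ± 2.15, stood above Prdx1, at 113 ± 8.10. Srxn1, at 25.7 ± 2.39, and Gclm, at 21.99 ± 1.54, overlapped in their SD ranges. Nqo1 was then the lowest member, at 1.03 ± 0.21 CPM per kilobase. Lengths were those of all annotated exons merged, which for Txnrd1 is 7086 bases against 3622 for its longest transcript.

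**Figure D3:**
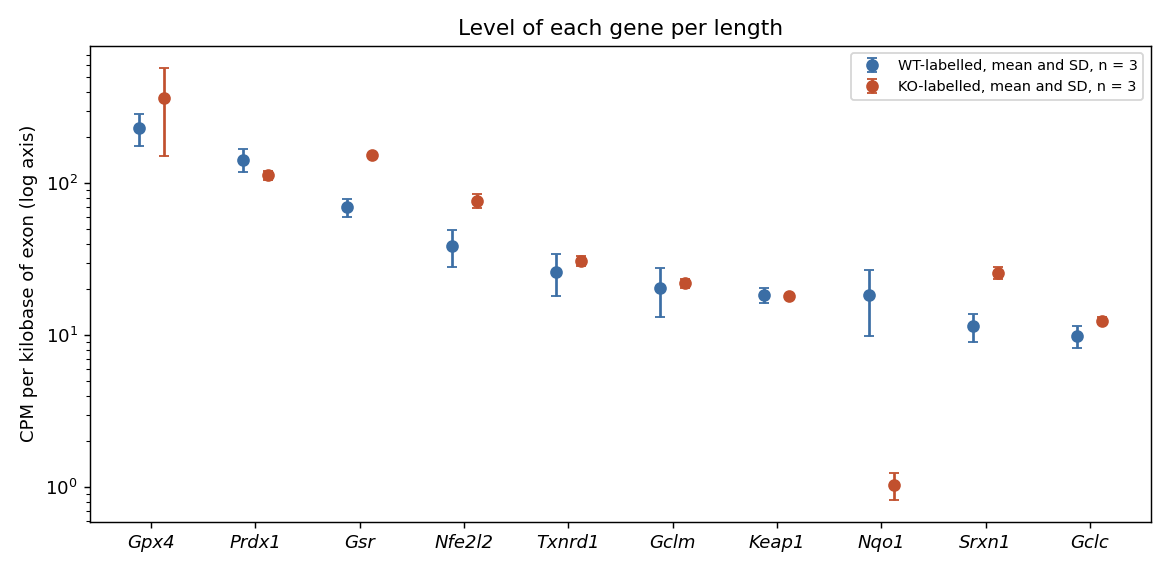
Level of each gene in CPM per kilobase of merged exon (log axis) as mean and SD of 3 libraries, WT-labelled in blue and KO-labelled in red-brown, ordered by the WT-labelled mean. Nqo1 drops from 18.3 to 1.03 while Gpx4 and Prdx1 stay the upper members with Gsr.

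Among 117 other genes of the pathway, grouped in 7 lists, 104 were tested, of which 32 were higher, 7 lower and 65 did not pass, beside 13.7% and 13.7% of all tested genes. Their median log2 fold change was 0.30. Replicates 2 and 3 by themselves gave 52 higher and 17 lower, beside 25.8% and 27.1% of all genes tested there. Leaving out WT-labelled replicate 1 gave 50 and 8, beside 22.0% and 20.8%. Of the genes named below by smallest p, Sqstm1, Ggt1, Msra, Idh2, Ftl1 and Fth1 did not pass with replicates 2 and 3 of each group summed (edgeR, adjusted p 0.078 to 0.34).

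Of 12 tested partners and regulators of NRF2, 4 rose and 0 fell (median 0.39), beside 13.7% of all tested genes higher and 13.7% lower. Maff, a small MAF protein of the kind that pairs with NRF2, had 2.34, 2.01 and 0.74 CPM under the WT label and 11.8, 10.8 and 10.1 CPM under the KO label, a log2 fold change of 2.68 (SE 0.41; adjusted p = 0.0040 by edgeR). Sqstm1, the autophagy receptor p62, which binds KEAP1 and is itself an NRF2 target, rose from 302 ± 34.9 to 556 ± 46.4 CPM (n = 3). Its log2 fold change was 0.88 (adjusted p = 0.0064). Sqstm1 shares 16.4% of its 31-base words with other transcripts, most with Mrnip, whose exons overlap its own on the opposite strand over 580 bases.

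Of 13 tested genes of glutathione supply and glutaredoxins, 2 rose, 0 fell and 11 did not pass (median 0.21). The share that rose lies near the 13.7% of all tested genes called higher, beside 13.7% lower. Slc7a11, the cystine importer that supplies cysteine for glutathione, had 15.3, 8.50 and 11.5 CPM under the WT label and 46.5, 35.3 and 36.6 CPM under the KO label. Every KO-labelled library was above every WT-labelled one (log2 fold change 1.75, SE 0.24; adjusted p = 0.0024 by edgeR). Ggt1, which breaks down glutathione outside the cell, rose from 0.69 to 2.89 CPM (adjusted p = 0.022), and its call was lost without WT-labelled replicate 2 or any 1 KO-labelled library (adjusted p 0.072 to 0.080).

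Glutathione transferases and detoxification enzymes went both ways: of 25 tested 8 rose, 5 fell and 12 did not pass (median 0.29). Among all tested genes 13.7% were higher and 13.7% lower. Gstm2, a cytosolic transferase that shares 12.2% of its 31-base words with other transcripts, rose from 11.4, 9.53 and 11.02 CPM to 192, 104.5 and 108 CPM, and Gstt2 rose from 11.3 ± 1.59 to 40.6 ± 9.11 CPM. The log2 fold changes were 3.66 and 1.84 (adjusted p = 2.1e-04 and 0.0010 by edgeR). Gsta4, a transferase that conjugates the lipid peroxidation product 4-hydroxynonenal, fell from 7.56 ± 2.13 to 0.69 ± 0.44 CPM, and Abcc4, an efflux pump, fell from 66.2 ± 20.5 to 24.3 ± 2.25 CPM. On the log2 scale these differences were −3.42 and −1.45 (adjusted p = 0.0035 and 0.0043).

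Of 20 tested thioredoxin, peroxiredoxin and peroxide-removing genes 7 rose, 1 fell and 12 did not pass (median 0.26). The shares over all tested genes were 13.7% higher and 13.7% lower. Gpx3, the secreted glutathione peroxidase, had 0.63, 0.17 and 1.24 CPM under the WT label, from 15, 3 and 25 reads, against 82.5, 46.5 and 46.4 CPM under the KO label. This was a log2 difference of 6.39 with an SE of 0.56 (edgeR, adjusted p = 3.6e-04). Sod2, the mitochondrial superoxide dismutase, which NF-κB also induces, rose from 70.0 ± 20.2 to 250.3 ± 32.6 CPM (adjusted p = 0.0014) and shares 26.7% of its 31-base words with other transcripts. Msra, a methionine sulfoxide reductase, fell from 73.1 to 50.9 CPM (adjusted p = 0.036), which no longer passed when any library other than WT-labelled replicate 1 was left out (adjusted p 0.058 to 0.15).

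Of 12 tested genes of NADPH production and supply, 4 rose, 1 fell and 7 did not pass (median 0.18). Over all tested genes 13.7% were higher and 13.7% lower. Aldh1l1, a folate enzyme that yields NADPH, rose from 2.29, 0.98 and 1.64 CPM to 64.4, 44.3 and 46.6 CPM, a log2 fold change of 4.96 (SE 0.33; adjusted p = 1.3e-04 by edgeR). Nadk, the kinase that makes NADP from NAD, rose from 99.9 ± 21.2 to 516 ± 54.0 CPM (adjusted p = 2.6e-04). Idh2, the mitochondrial isocitrate dehydrogenase, fell from 196 ± 41.5 to 124 ± 6.75 CPM (adjusted p = 0.027) and did not pass without any 1 KO-labelled library (0.082 to 0.099). G6pdx, the first enzyme of the pentose phosphate pathway, was named after its values were seen because it lies on chromosome X: it rose from 215 ± 15.0 to 337 ± 6.64 CPM (adjusted p = 0.0084), beside the difference in donor sex, whose part was not tested. The same holds for Acsl4, a chromosome X gene of the ferroptosis list, which rose from 60.8 ± 4.99 to 98.0 ± 7.03 CPM (adjusted p = 0.0067 by edgeR). Prdx4, of the peroxiredoxin list and also on chromosome X, did not pass (adjusted p = 0.71). G6pdx shares 23.6% of its 31-base words with other transcripts, most with G6pd2.

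The 2 ferritin genes were the 2 that rose among 7 tested genes of heme breakdown and ferritin, where 0 fell (median 0.92). Beside this, 13.7% of all tested genes were higher and 13.7% lower. Fth1 rose from 991, 1768 and 1666 CPM to 6683, 3284 and 3226 CPM and Ftl1 from 2865 ± 262 to 8611 ± 3651 CPM, with log2 fold changes of 1.58 and 1.59 (adjusted p = 0.021 and 0.012 by edgeR). KO-labelled replicate 1 was the highest library for both. Neither passed without WT-labelled replicate 2 or 3 (adjusted p 0.050 to 0.061), and Ftl1 shares 64.1% of its 31-base words with other transcripts, most with Ftl1-ps1. Hmox1, heme oxygenase 1 and a classical NRF2 target, was named after its values were seen and did not pass (76.7 ± 22.9 against 96.55 ± 25.1 CPM, adjusted p = 0.42).

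Of 15 tested genes of selenoprotein synthesis and ferroptosis, 5 rose and 0 fell, beside 13.7% of all tested genes higher and 13.7% lower. The list median was 0.34, also with Alox15, which had 0 reads in the WT-labelled libraries, at its lower bound of 5.39-fold. Aifm2 (FSP1), which protects membranes from lipid peroxidation alongside GPX4, had 9.77, 9.93 and 9.78 CPM under the WT label and 31.9, 26.45 and 30.4 CPM under the KO label. The groups were far apart relative to their spread (log2 fold change 1.59, SE 0.14; adjusted p = 4.1e-04 by edgeR). Alox5, the 5-lipoxygenase of leukotriene synthesis, rose from 1.16 ± 0.92 to 16.3 ± 2.44 CPM (adjusted p = 0.0047).

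**Figure D4:**
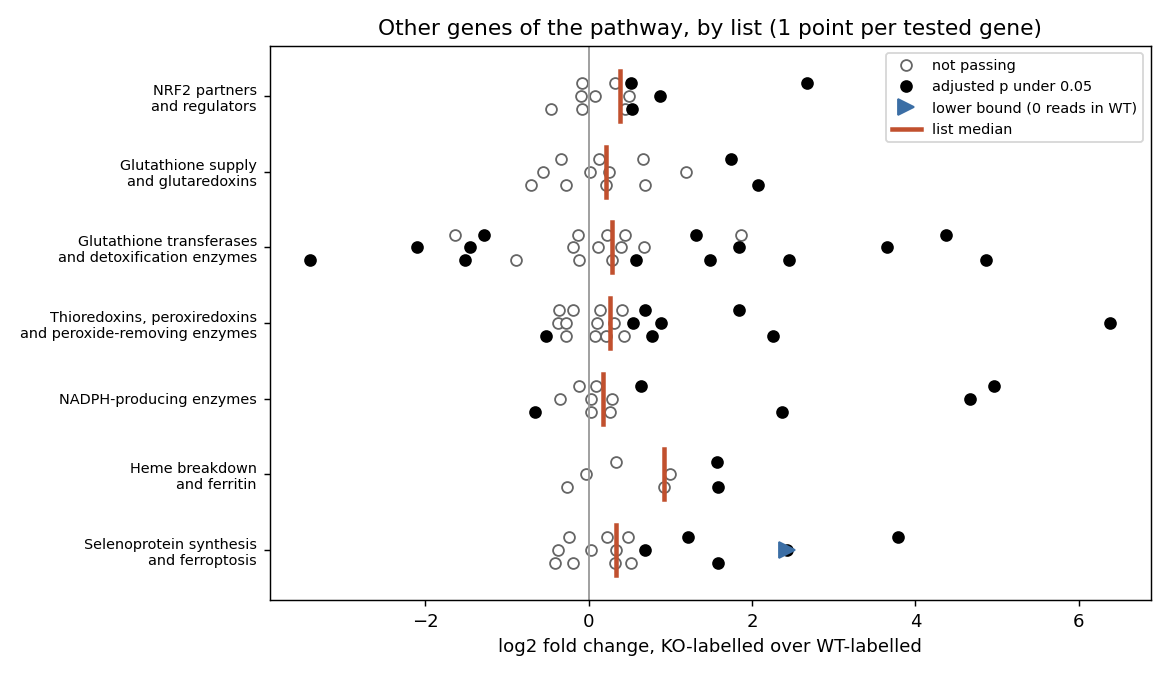
Log2 fold change of KO-labelled over WT-labelled libraries (horizontal axis) for each tested gene of the 7 related lists, filled where the adjusted p was under 0.05, with the list median as a vertical bar and Alox15 drawn as a triangle at its lower bound. Filled points lie on both sides of 0 for the glutathione transferases and on the right in the lists where 0 genes fell.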

How the data were processed

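The 6 libraries, 3 per label, came from a stranded mRNA kit, per the labels' protocols. The values deposited by the authors are raw read counts per gene; per the submitters' processing notes the tools were FastQC 0.11.7, HISAT2 2.0.5 and featureCounts 1.5.2 with mm10, while the annotation and whether strand was used are not stated there. Counts were tested with edgeR 4.0.16 (R 4.3.3; TMM scaling, filterByExpr, robust quasi-likelihood fit, Benjamini-Hochberg adjustment over 12126 genes, threshold 0.05); SE is the log2 fold change over the square root of F. The code was tested on simulated data. As alternatives the fit was repeated with other scalings and filters, DESeq2 1.42.0, limma-voom 3.58.1, a replicate block, replicates 2 and 3 alone or summed, and leaving out each library. Named genes were all 10 members, Tnfaip3, and from each related list the 2 called genes of smallest p in each direction. Members and lists were chosen with earlier results of these data known. Positions, exon lengths and shared 31-base words came from GENCODE vM21. A count of 3 reads corresponds to 0.125 to 0.179 CPM. Of the marker symbols, 1 was matched by an older name and 1 was not matched.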

Additional observations from a re-analysis of the deposited data

How the results depend on the processing

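Nqo1, Gsr and Srxn1 kept their direction and call under all 17 alternatives, and Nfe2l2 under 13, with log2 fold changes of 0.69 to 1.18. Genes called numbered 3316 with all 6 libraries, 6458 in replicates 2 and 3 alone, 1061 with replicates 2 and 3 of each group summed (4 libraries in all), and 1855 to 5280 when 1 library was left out. Members called higher numbered 3, then 6 in replicates 2 and 3 alone and 2 to 6 with 1 library left out; 1 member was lower in each. Related genes called higher were 32, then 52, 14 with sums, and 22 to 50; those called lower were 7, then 17, 2 with sums, and 4 to 8. Summing leaves fewer libraries; the cause of the other shifts was not tested. Directions turned for 2 genes that were not called. Keap1 turned to 0.067 with only replicates 2 and 3 and ranged from −0.0997 to 0.0741 with 1 library left out, turning without WT-labelled replicate 1. Gclm ranged from −0.0598 to 0.44 with 1 library left out, turning without WT-labelled replicate 2 or 3. Replicate numbers were not taken as pairs: deviations of same-numbered libraries correlated at −0.139 to 0.0392, and 2 of 6 libraries correlated best with their own number. Both replicate 1 libraries nevertheless shared a high Gapdh level. Ncoa4 of the ferroptosis list, named after its values were seen, was likewise at 546 and 468 CPM in the WT-labelled and KO-labelled replicate 1 and at 124 to 156.5 CPM elsewhere. A replicate block gave 2023 genes called, 22 related genes higher and 4 lower, with Nfe2l2 at an adjusted p of 0.058 by edgeR. Depth limits the rarest genes named, such as Ggt1 with 7 to 22 reads in the WT-labelled libraries.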

Other observations

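Glutathione transferase genes of the mu and theta classes, named here after their values were seen, are given as values. Gstm1 had 465 ± 31.4 CPM under the WT label and 1304 ± 413 CPM under the KO label (n = 3; log2 fold change 1.49, adjusted p = 0.0050 by edgeR). Gstm4 rose by 0.58 (adjusted p = 0.019), whereas Gstm5 did not pass (−0.19, adjusted p = 0.63). Gstt1 rose from 1.52 to 31.2 CPM and Gstt3 from 25.6 to 63.8 CPM (adjusted p = 0.0030 and 0.0049). Gstm1 shares 28.8% of its 31-base words with other transcripts, most with Gstm2-ps1, and the other 4 genes share 0.5% to 14%. Prdx5, a peroxiredoxin of mitochondria and peroxisomes, rose from 223 ± 65.2 to 1066.5 ± 303 CPM (adjusted p = 0.0021), while Prdx1 did not pass. The microsomal transferases Mgst2 and Mgst3 fell by 2.10 and 1.51 on the log2 scale (adjusted p = 0.0044 and 0.0099 by edgeR), while Mgst1 did not pass (0.67, adjusted p = 0.58), with 4.13 in the replicate 1 pair and −0.096 in replicates 2 and 3 alone.

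The 10 nearest tested genes of each called member, 5 on each side, were chosen for a look after the values were seen. Around Nqo1 0 of 10 were called by edgeR, 1 by DESeq2 and 0 by limma-voom, 2 had an unadjusted p under 0.05, and log2 fold changes ran from −0.94 to 0.49 over up to 1950 kilobases. Around Nfe2l2 1 was higher and 2 lower, around Gsr 2 and 2, and around Srxn1 1 and 2. These shares (30%, 40% and 30%) lie near the 27.3% of all tested genes called.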
